A study of Saccharomyces cerevisiae with 8 samples.

Results

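Budding yeast can make every amino acid from sugar and a nitrogen source, and the enzymes of these pathways are the genes described here. They are 56 of the 6600 protein-coding genes counted, chosen by name: the transcription activator gene GCN4 and 55 enzyme genes for histidine, arginine, lysine, leucine, isoleucine, valine, the aromatic amino acids, homoserine, threonine, serine and asparagine. ARO9 and ARO10 are in the list as enzymes of aromatic amino acid breakdown. The measurement was ribosome profiling, in which the short mRNA fragments shielded by ribosomes from nuclease, the ribosome protected fragments (RPFs), are sequenced and counted on each coding sequence (CDS).

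The libraries came from 4 evolved strains of the FY4/S288C background, each a single clone with extra copies of GAP1, the general amino acid permease gene, and all carrying a fluorescent reporter and a drug resistance marker beside it. All were grown in aerobic chemostats limited by glutamine, and cycloheximide was added before harvest. Trans (strain DGY1726) carries a transposon-mediated amplification of the GAP1 region of chromosome XI and a second amplified segment on chromosome V, and it was isolated at generation 150. ODIRA_A (DGY1735) carries a triplication formed by origin-dependent inverted repeat amplification and was also isolated at generation 150. ComQuad (DGY1741) carries a complex amplification with the shortest amplified segment, and ODIRA_B (DGY1743) a triplication of the same type as ODIRA_A but with other ends. Both were isolated at generation 250, so the time of isolation cannot be told apart from the structure between these pairs of strains. The paper also reports new small mutations in the evolved strains, and in Trans a translocation on chromosome VIII. The effects of these cannot be told apart from the other differences between strains either. Each strain had 2 libraries. The ancestor was not analysed here, so every difference is between evolved strains.

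Gcn4 is the activator that raises transcription of most amino acid biosynthesis genes when amino acids run short. Its mRNA leader holds short upstream reading frames that keep ribosomes from the GCN4 CDS when amino acids are plentiful, and the kinase Gcn2 relieves this block by phosphorylating initiation factor eIF2. Several pathways have an activator of their own as well, among them Leu3 for the branched-chain enzymes, Lys14 for the lysine enzymes and Aro80 for aromatic breakdown. Glutamine, the limiting nutrient, is together with glutamate the nitrogen donor for these pathways.

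The libraries held 3723082 to 11459498 RPFs on CDS, with the fewest in ODIRA_B, and the 56 genes took 64031 to 154967 of them. No member had fewer than 77 RPFs in any library. None of the 56 lies in an amplified segment. The labels of ODIRA_B and Trans were checked on copy number. In ODIRA_B 9 of 9 chromosome XI genes amplified only there were higher, with a median log2 difference of 1.61. In Trans 7 of 7 tested genes of the chromosome V segment were higher, with a median of 1.51. The labels of ODIRA_A and ComQuad were not checked in this way. The Trans libraries were the least alike, with an SD of the log2 ratio between replicates of 0.356 over the 56 genes, against 0.177 in ODIRA_A, 0.174 in ComQuad and 0.119 in ODIRA_B. Levels are given as normalized CPM, RPF counts scaled to the size of the library and by TMM; TMM corrects for differences in library composition. Differences are on the log2 scale with the standard error (SE) of an edgeR quasi-likelihood fit of all 8 libraries, with Benjamini-Hochberg adjusted p-values over the 5725 genes tested and 0.05 as the threshold. The p-values measure the spread between 2 libraries per strain.

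The 56 genes mostly had high RPF levels. RNA was not used here, so these levels do not separate the amount of mRNA from its translation. Per kilobase of CDS their median level was 169.0 CPM against 45.9 CPM over all 5725 tested genes, and 10 of them ranked above the 90th percentile of all genes. ILV5, the acetohydroxyacid reductoisomerase of the branched-chain pathway, was the highest at 1130.0 CPM per kilobase, followed by CPA1, the glutamine-using subunit of carbamoyl-phosphate synthetase, at 959.0. ARO10 and ARO9 were the lowest, at 14.4 and 16.3 CPM per kilobase over all libraries. The genes lie on 15 chromosomes, with at most 9 on one of them, chromosome IV.

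ComQuad stood apart as the strain with the lowest RPF levels on these genes, and ODIRA_B as the strain with the highest levels of aromatic breakdown enzymes. Among the 4 strains 39 of the 56 genes differed, where 43.5% of all tested genes did. In ComQuad 27 of the 56 genes were lower and 4 higher than the mean of the other 3 strains, where 16.9% of all genes were lower and 16.9% higher. In Trans 13 were higher and 3 lower (9.52% and 5.71% of all genes), in ODIRA_B 12 were higher and 2 lower (12.0% and 6.55%), and in ODIRA_A 6 were higher and 10 lower (12.1% and 12.5%). The median log2 difference of the 56 genes was -0.331 in ComQuad, 0.108 in Trans, 0.199 in ODIRA_B and -0.017 in ODIRA_A, with all-gene medians between -0.009 and 0.006. These contrasts share libraries and are not independent of each other. The mean that Trans was compared with holds ComQuad. In the pair tests 26 of the 56 genes were higher and 4 lower in Trans than in ComQuad. Against ODIRA_B 5 were higher and 9 lower in Trans, and against ODIRA_A 1 was higher and 0 lower. Of all genes 30.7%, 18.7% and 3.65% differed in these pairs, in either direction.

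**Figure D1:**
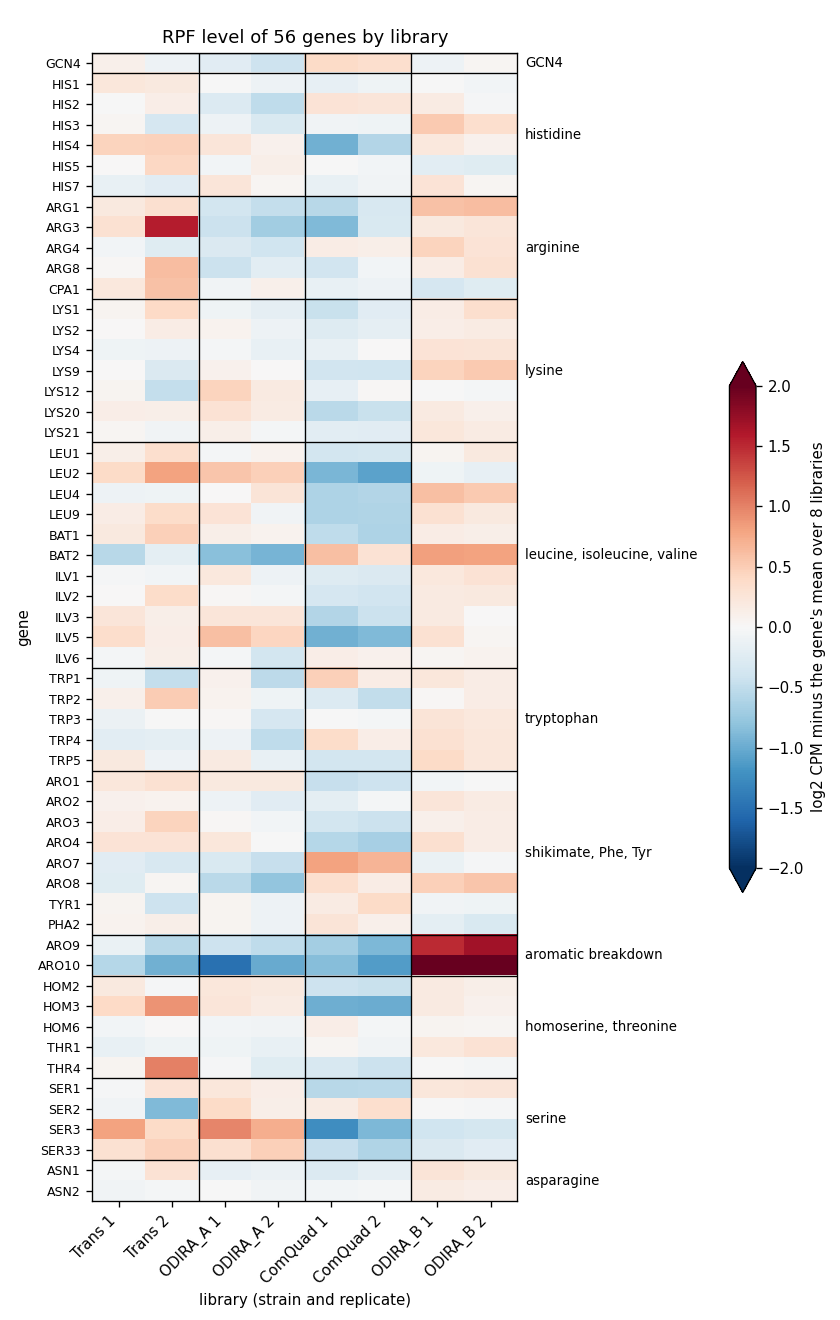
Heat map of the 56 genes (rows, grouped by pathway) in the 8 libraries (columns, strain and replicate). Colour is log2 CPM minus the gene's own mean over the 8 libraries, red above and blue below. Most rows of the leucine, isoleucine and valine group are blue in both ComQuad libraries, and ARO9 and ARO10 are dark red in both ODIRA_B libraries.

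The same order was visible without a test. For 28 of the 56 genes (17.9% of all genes) ComQuad had the 2 lowest libraries of the 8, and both lay above the others for 4 (17.9%), which were GCN4, HIS2, ARO7 and TYR1. Both ODIRA_B libraries lay above all 6 others for 17 genes (12.6%) and below them for 3 (10.3%), HIS5, CPA1 and PHA2. Both Trans libraries were above the rest for 8 genes (6.03%) and below for 1 (5.03%), and both ODIRA_A libraries were above for 3 (9.80%) and below for 6 (10.9%). Between pairs of strains, 30 of the 56 genes differed between Trans and ComQuad (30.7% of all genes), 30 between ComQuad and ODIRA_B (24.6%), 25 between ODIRA_A and ComQuad (33.6%), 16 between ODIRA_A and ODIRA_B (22.4%), 14 between Trans and ODIRA_B (18.7%) and 1, ARG1, between Trans and ODIRA_A (3.65%).

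Single libraries moved these counts. The numbers of calls over all tested genes, taken in either direction, mostly moved the same way. Most of these shifts were therefore not particular to the genes described here. The 39 genes that differed among strains became 20 without ComQuad replicate 1 and 24 without ComQuad replicate 2. The 27 lower genes in ComQuad became 18 without ComQuad replicate 2, and the 4 higher ones became 1 without ComQuad replicate 1, 7 without Trans replicate 2 or ODIRA_A replicate 1, and 9 without Trans replicate 1. The 13 higher genes in Trans became 5 without Trans replicate 2, 23 without Trans replicate 1, 7 without ComQuad replicate 2, and 8 without ComQuad replicate 1 or either ODIRA_B library. The 12 higher genes in ODIRA_B became 7 without its replicate 1, 5 without its replicate 2, and 21 and 25 without Trans replicates 1 and 2. In ODIRA_A the 10 lower genes became 3 without its replicate 2 and 16 without Trans replicate 1, and the 6 higher ones became 3 without ODIRA_A replicate 2, 10 without Trans replicate 1 and 11 without Trans replicate 2. Of the 31 calls in ComQuad 18 were kept under every alternative tried. The same held for 6 of 16 calls in Trans, 6 of 16 for ODIRA_A and 5 of 14 for ODIRA_B. With all libraries in the fit, 33.8%, 15.2%, 24.6% and 18.5% of all genes were called in these strains. How many of those calls were kept was not counted. No call changed direction.

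GCN4 itself was highest in ComQuad, the strain in which most of the enzyme genes were lowest. Its levels were 183.5 and 177.0 CPM in ComQuad, 150.4 and 131.0 in Trans, 131.0 and 143.6 in ODIRA_B, and 119.6 and 105.1 in ODIRA_A. The ComQuad libraries were above all others and the ODIRA_A libraries below all others, while Trans and ODIRA_B overlapped. The log2 difference was 0.48 ± 0.10 in ComQuad (SE, n = 2 libraries per strain, edgeR adjusted p = 0.0038) and -0.43 ± 0.10 in ODIRA_A (edgeR adjusted p = 0.013). Without ComQuad replicate 1 the first had an adjusted p of 0.07, and without ODIRA_A replicate 2 or ODIRA_B replicate 2 the second had 0.15 and 0.05, in the same edgeR test. The range of its strain means, 0.68 on the log2 scale, was narrower than that of the 13 enzyme genes that differed by at least 1. The counts cover the GCN4 CDS and hold no value for its upstream reading frames.

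The pathway with the most calls in ComQuad was the branched-chain pathway, which makes leucine, isoleucine and valine. Of its 11 genes 9 were lower in ComQuad, 1 was higher and ILV6, the regulatory subunit of acetolactate synthase, did not pass the test (log2 difference 0.14 ± 0.11). Over all tested genes 16.9% were lower and 16.9% higher there. The median over the 11 was -0.674. ILV5 had 690.0 and 726.9 CPM in ComQuad and 1372.0 to 2033.2 in the other 6 libraries, a log2 difference of -1.23 ± 0.13 (edgeR adjusted p = 3.5e-05). Within those, ODIRA_A had the highest levels, 2033.2 and 1809.7, ahead of Trans with 1709.1 and 1467.7 and ODIRA_B with 1658.8 and 1372.0. Neither of the latter differed from ODIRA_A in the pair test (edgeR adjusted p = 0.3 and 0.12).

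LEU2, the isopropylmalate dehydrogenase of leucine synthesis, had 158.1 and 142.6 CPM in ComQuad, 281.7 and 268.0 in ODIRA_B, 441.3 and 417.3 in ODIRA_A, and 392.1 and 525.2 in Trans. No strain overlapped ComQuad or ODIRA_B, and Trans and ODIRA_A overlapped each other. In ComQuad the log2 difference was -1.33 ± 0.13 (edgeR adjusted p = 2.8e-05). ODIRA_B was itself lower than Trans by 0.74 ± 0.15 and lower than ODIRA_A by 0.64 ± 0.15 (edgeR adjusted p = 0.008 and 0.012). LEU4, the main isopropylmalate synthase and the entry to the leucine branch, had the lowest level in ComQuad and the highest in ODIRA_B: 236.4 and 239.3 CPM against 549.4 and 518.9, with 336.9 and 341.6 in Trans and 361.8 and 429.6 in ODIRA_A. Its log2 difference was -0.81 ± 0.11 in ComQuad and 0.75 ± 0.10 in ODIRA_B (edgeR adjusted p = 0.00023 and 0.00049).

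The other lower genes of the pathway were LEU9, BAT1, ILV3, ILV2, LEU1 and ILV1, with log2 differences in ComQuad from -0.81 for LEU9, the minor isopropylmalate synthase, to -0.36 for ILV1, the threonine deaminase that starts isoleucine synthesis. The calls of ILV1, ILV2, the catalytic subunit of acetolactate synthase, and LEU1, the isopropylmalate isomerase, were lost when either ComQuad library was left out, and that of ILV1 also without either ODIRA_B library. Together the 11 genes took 0.351% and 0.34% of all CDS RPFs in ComQuad and 0.498% to 0.545% in the other libraries. The exact binomial 95% intervals reached from 0.336% to 0.355% in ComQuad and from 0.491% to 0.55% in the others, and cover counting error only.

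The pair of branched-chain aminotransferases moved in opposite directions in ComQuad. In ODIRA_A and ODIRA_B, BAT2 passed the test against the mean of the others and BAT1 did not. BAT1, the mitochondrial enzyme, had 155.2 and 144.5 CPM in ComQuad and 232.5 to 305.9 in the other libraries, a log2 difference of -0.75 ± 0.11 (edgeR adjusted p = 0.00036). BAT2, the cytosolic enzyme, had 369.3 and 297.1 CPM in ComQuad, 429.3 and 426.7 in ODIRA_B, 167.1 and 213.3 in Trans and 137.1 and 128.5 in ODIRA_A. Both strains isolated at generation 250 were above both strains isolated at generation 150, with no overlap. It differed by 1.07 ± 0.12 (log2) in ODIRA_B, 0.59 ± 0.12 in ComQuad and -1.18 ± 0.13 in ODIRA_A (edgeR adjusted p = 0.00013, 0.0033 and 0.00014), and the ComQuad call was lost without ComQuad replicate 1, where values without one library ran from 0.43 to 0.74. ComQuad and ODIRA_B did not pass the test against each other (-0.36 ± 0.15, edgeR adjusted p = 0.11). Per kilobase, BAT1 exceeded BAT2 by 1.37 to 1.73 times in the Trans and ODIRA_A libraries. In the ComQuad and ODIRA_B libraries the ratio was 0.402 to 0.544, so BAT2 had the higher level.

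The sequences before the start codons are shown for the branched-chain group as background, since Leu3 and Gcn4 are known activators of its genes. The Leu3 site, CCGGNNCCGG on either strand, was found in the 500 bases before the start codon of 5 of the 56 genes, LEU1, LEU2, BAT1, ILV2 and ILV5, and in 17 of 6567 genes in all (8.93% and 0.259%). All 5 are branched-chain genes and all 5 were lower in ComQuad. In LEU2, BAT1, LEU1 and ILV5 the sites read as below in the R64 genome, 5′ to 3′ on the gene's strand, with the Leu3 site in capitals.
LEU2: ggtgagagcgCCGGAACCGGcttttcatat
BAT1: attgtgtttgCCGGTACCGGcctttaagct
LEU1: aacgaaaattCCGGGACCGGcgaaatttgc
ILV5: gcggtctcctCCGGTACCGGttctgccacc
They lie at chrIII:91116-91145 (plus strand), chrVIII:517375-517404 (plus), chrVII:478850-478879 (minus) and chrXII:839611-839640 (minus). The site ends 189, 138, 208 and 368 bases before the start codon. BAT2, which was higher in ComQuad, has no match in its window. Neither has ILV6, nor have LEU4, LEU9, ILV1 and ILV3, which were lower in ComQuad like the genes with a match. Of the 51 of the 56 genes without a match 22 were lower and 4 higher in ComQuad (16.9% each of all genes).

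The Gcn4 core TGACTC, searched on either strand in the same windows, was found before 36 of the 56 genes (64.3%), against 13.2% of all genes. In the 250 bases nearest the start codon the shares were 51.8% and 6.47%. GCN4, HIS2, BAT2, ARO7 and ARO8 had none, and neither had LEU2, LYS9, SER3, ARO9 and ARO10. In ComQuad 17 of the 36 genes with the core were lower and 0 were higher by the edgeR test. Of the 20 without it 10 were lower and 4 higher, where 16.9% of all genes were lower and 16.9% higher. Lower genes were thus about as frequent with the core as without it. The medians were -0.402 with the core and -0.22 without. A window may reach into a neighbouring gene, and a match of letters is a description of the sequence only.

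**Figure D2:**
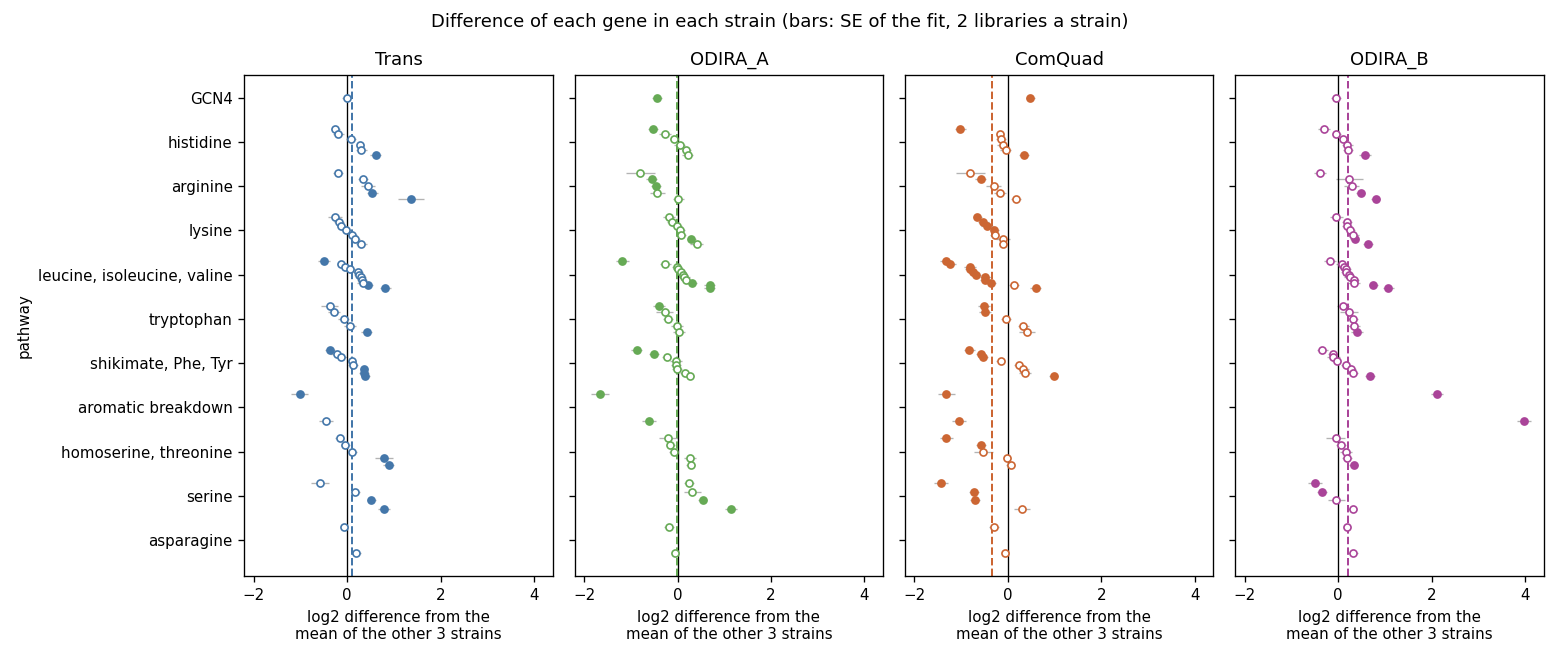
Log2 difference of each gene from the mean of the other 3 strains, by pathway, with 1 panel per strain. Points are genes, filled where the edgeR adjusted p was under 0.05, grey bars are the SE, and the dashed line is the median of the 56 genes. In ComQuad most points lie left of 0 (median -0.331), and in ODIRA_B ARO10 lies at 3.98 and ARO9 at 2.11.

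Aromatic amino acid breakdown held the largest difference of all 56 genes. ARO10, the decarboxylase that acts on phenylpyruvate and related keto acids in fusel alcohol formation, had 190.9 and 252.6 CPM in ODIRA_B. The other 3 strains overlapped, with 18.6 and 14.2 for Trans, 9.8 and 13.7 for ODIRA_A, and 15.3 and 12.7 for ComQuad. The log2 difference in ODIRA_B was 3.98 ± 0.15 (edgeR adjusted p = 6.3e-08), a 15.8-fold level. ARO9, the aromatic aminotransferase that feeds this breakdown, had 70.8 and 80.8 CPM in ODIRA_B and 13.5 to 22.8 in the other 6 libraries, a log2 difference of 2.11 ± 0.13 (edgeR adjusted p = 2.3e-06). Among Trans, ODIRA_A and ComQuad no pair differed for ARO9 or ARO10. The calls of both as lower in ODIRA_A and ComQuad against the mean of the others, and of ARO10 in Trans, therefore rest on the high ODIRA_B level within that mean. The 2 genes together took 0.024% and 0.032% of the CDS RPFs in ODIRA_B and 0.0027% to 0.00415% elsewhere.

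Aro80, the activator of both genes, binds repeated CCG triplets. The pattern CCGNNNNNNNCCG on either strand was found in the 500-base windows of 5.24% of all genes and of 8 of the 56 (14.3%). It occurred 5 times before ARO9 and 4 times before ARO10, in part overlapping, and 5 of 6567 genes had 4 or more matches. In ILV2 and ILV5 it overlaps the Leu3 site, which shares the triplet. Examples from ARO9 and ARO10 are shown because these are the members that changed most, again 5′ to 3′ on the gene's strand, with the pattern in capitals.
ARO9: gatgcttaCCGAGATTTGCCGcggataac
ARO9: gagatttgCCGCGGATAACCGaaccatca
ARO10: gcggatagCCGTCATTTACCGaaaattgc
ARO10: gtcatttaCCGAAAATTGCCGaggtcatg
The ARO9 runs lie at chrVIII:375546-375574 and chrVIII:375556-375584 and the ARO10 runs at chrIV:1233878-1233906 and chrIV:1233888-1233916, all on the plus strand. The matches end 143 and 133 bases before the ARO9 start codon and 320 and 310 bases before that of ARO10. The level of ARO80 itself did not pass the test among the strains (edgeR adjusted p = 0.39), with 30.2 to 43.2 CPM in the 8 libraries.

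**Figure D3:**
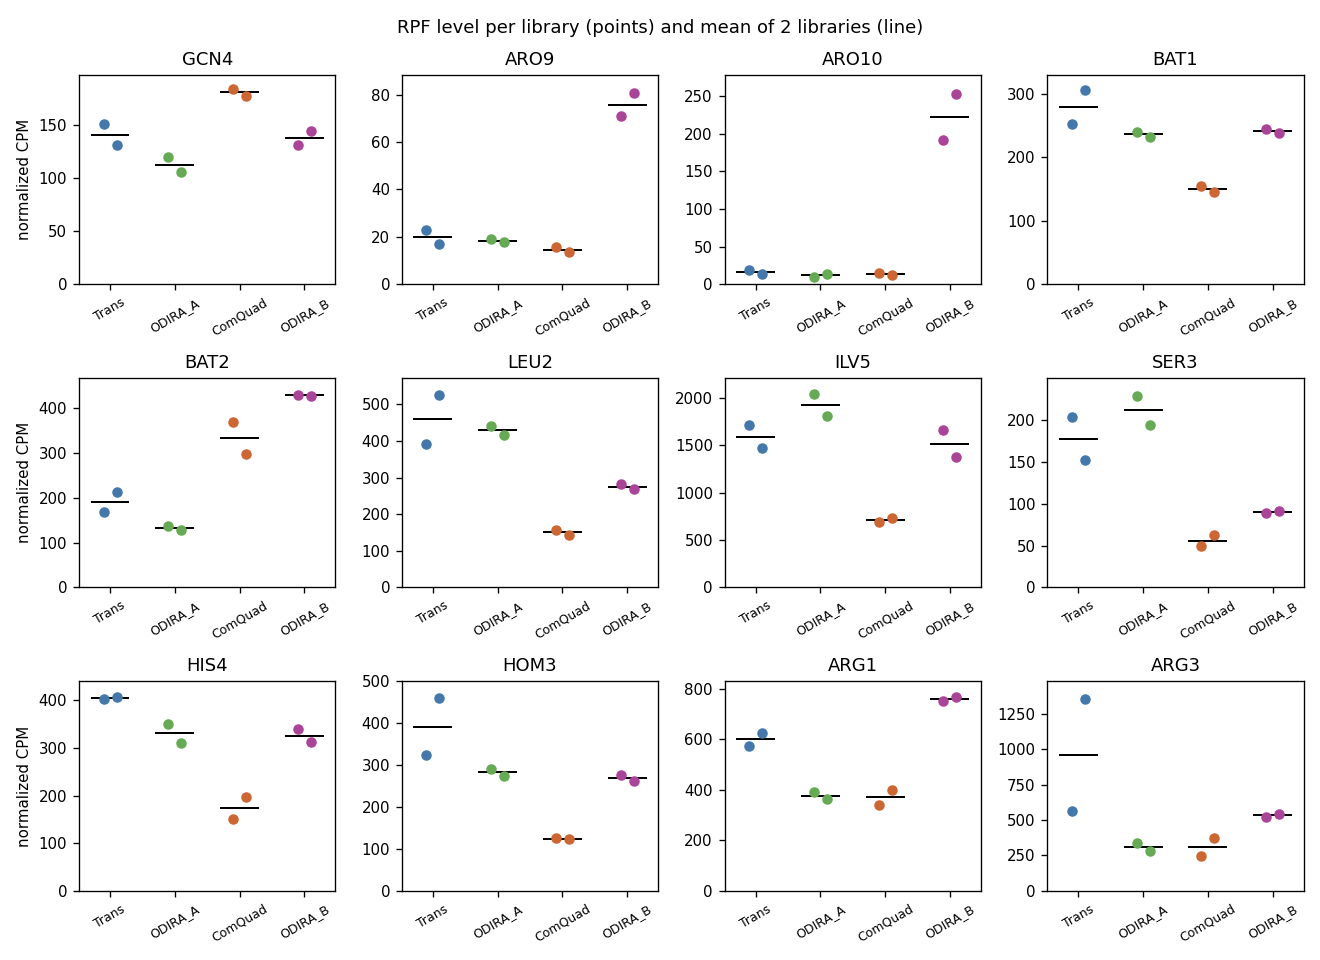
Normalized CPM of 12 genes in each library (points, coloured by strain) with the mean of the 2 libraries (line); every vertical axis starts at 0 and has its own scale. ARO9 and ARO10 are high only in ODIRA_B, BAT1 is lowest and BAT2 is raised in ComQuad, and the ARG3 libraries of Trans lie at 563.1 and 1356.4.

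ARO8, the main aromatic aminotransferase and counted here with the shikimate, phenylalanine and tyrosine genes, followed the order of BAT2 rather than that of ARO9. It had 448.1 and 473.4 CPM in ODIRA_B, 409.0 and 357.7 in ComQuad, 273.3 and 330.5 in Trans and 222.8 and 187.6 in ODIRA_A, with no overlap between strains. Its log2 difference was -0.88 ± 0.12 in ODIRA_A and 0.68 ± 0.12 in ODIRA_B (edgeR adjusted p = 0.00066 and 0.0024), and the latter call was lost without ODIRA_B replicate 2, with values of 0.63 to 0.73 without one library. ARO7, the chorismate mutase that turns the pathway towards phenylalanine and tyrosine, was the enzyme gene that rose most in ComQuad: 138.5 and 127.0 CPM against 57.5 to 78.2 in the other 6 libraries, a log2 difference of 0.98 ± 0.10 (edgeR adjusted p = 2.3e-05).

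The enzymes upstream of ARO7 went the other way in ComQuad. ARO4 and ARO3, the DAHP synthases at the entry of the shikimate pathway, and ARO1, the pentafunctional enzyme after them, were lower by log2 differences of -0.82 ± 0.11, -0.53 ± 0.11 and -0.58 ± 0.10 (edgeR adjusted p = 0.00022, 0.0035 and 0.00086), and the ARO3 call was lost without ComQuad replicate 2. ARO2, the chorismate synthase, TYR1 and PHA2 did not pass, at -0.15, 0.36 and 0.24. Of the 8 genes 3 were thus lower and 1 higher in ComQuad (16.9% each of all genes), at a median of 0.047. The share of the group in all CDS RPFs, 0.137% to 0.161%, hardly separated the strains. Of the 5 tryptophan genes TRP2, the anthranilate synthase, had the widest range, with 89.6 and 77.3 CPM in ComQuad against 117.0 and 153.5 (Trans), 114.3 and 102.0 (ODIRA_A) and 110.2 and 119.9 (ODIRA_B). Its log2 difference in ComQuad was -0.51 ± 0.13 (edgeR adjusted p = 0.011), and -0.41 with an adjusted p of 0.16 without ComQuad replicate 2. TRP5, the tryptophan synthase, was also lower in ComQuad (-0.49 ± 0.13, edgeR adjusted p = 0.013), a call that was lost without either ComQuad library, whereas TRP1, TRP3 and TRP4 lay between -0.03 and 0.41 and did not pass.

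In serine synthesis, which branches from glycolysis, the entry enzymes were lowest in ComQuad and highest in the strains isolated at generation 150. SER3, a phosphoglycerate dehydrogenase at the entry of the pathway, had 202.8 and 151.4 CPM in Trans, 228.8 and 193.7 in ODIRA_A, 88.8 and 91.7 in ODIRA_B and 49.4 and 62.3 in ComQuad. Trans and ODIRA_A overlapped, ODIRA_B lay below both and ComQuad below all. The log2 difference was -1.43 ± 0.15 in ComQuad, 1.14 ± 0.13 in ODIRA_A and 0.80 ± 0.13 in Trans (edgeR adjusted p = 3.8e-05, 0.00015 and 0.0031). Its paralog SER33 kept the same order, with 340.7 to 385.5 CPM in Trans and ODIRA_A, 226.2 and 236.4 in ODIRA_B and 199.5 and 182.8 in ComQuad (log2 difference -0.71 ± 0.11, edgeR adjusted p = 0.00048). SER1, the phosphoserine aminotransferase, was lower in ComQuad (-0.73 ± 0.11, edgeR adjusted p = 0.00045) and did not pass in another strain. SER2, the phosphatase of the last step, did not pass in any strain and had 70.0 and 40.0 CPM in the Trans libraries. The 4 genes took 0.0492% and 0.0493% of CDS RPFs in ComQuad, 0.0571% and 0.0614% in ODIRA_B and 0.0796% to 0.0939% in Trans and ODIRA_A.

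In the homoserine and threonine pathway HOM3 had the widest range. HOM3, the aspartate kinase that begins the pathway, had 125.2 and 123.6 CPM in ComQuad, 277.5 and 261.3 in ODIRA_B, 291.9 and 275.2 in ODIRA_A and 323.9 and 460.0 in Trans. HOM3 differed by a log2 value of -1.32 ± 0.14 in ComQuad and 0.89 ± 0.12 in Trans (edgeR adjusted p = 4.2e-05 and 0.0012). The mean that Trans was compared with holds the low ComQuad level, and no gene of this pathway was called between Trans and ODIRA_A. HOM2, the next enzyme, was lower in ComQuad by -0.58 ± 0.10 (edgeR adjusted p = 0.0016). HOM6, which completes homoserine synthesis, had 438.9 to 501.6 CPM over all 8 libraries and differed among the strain means by at most 0.11 on the log2 scale. THR1, the homoserine kinase, was higher in ODIRA_B (0.33 ± 0.09, edgeR adjusted p = 0.029) and THR4, the threonine synthase, in Trans (0.78 ± 0.19, edgeR adjusted p = 0.025). The THR4 libraries of Trans had 468.5 and 907.0 CPM, and without one library its difference ran from 0.23 to 1.18 and was lost in 6 of 8 such fits. That of THR1 was lost in 5.

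Among the 6 histidine genes HIS4 was the one with a wide range. It encodes a trifunctional enzyme and is a classical target of Gcn4. HIS4 had 151.6 and 196.7 CPM in ComQuad against 402.5 and 406.5 (Trans), 349.7 and 311.3 (ODIRA_A) and 339.4 and 312.1 (ODIRA_B), so that ComQuad lay below all and Trans above all. The log2 difference was -1.02 ± 0.13 in ComQuad and 0.61 ± 0.11 in Trans (edgeR adjusted p = 0.00012 and 0.0064). No histidine gene was called higher in Trans than in ODIRA_A or in ODIRA_B. The HIS4 call in Trans therefore rests on the low ComQuad level within the mean of the others. HIS2, the histidinol phosphatase, was higher in ComQuad (0.34 ± 0.10, edgeR adjusted p = 0.025) and lower in ODIRA_A (-0.52 ± 0.11, edgeR adjusted p = 0.0058). The first call was lost without either ComQuad library or ODIRA_B replicate 2, where values without one library ran from 0.31 to 0.38, and the second without ODIRA_A replicate 2, where they ran from -0.65 to -0.41. HIS3 was higher in ODIRA_B (0.57 ± 0.12, edgeR adjusted p = 0.009), a call lost without either ODIRA_B library. HIS3 overlaps YOR203W on the same strand, whose reads cannot be told apart from its own in the overlap. HIS1, HIS5 and HIS7 did not pass in any strain.

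HIS4 has 3 copies of the Gcn4 core within its window, shown because it is the Gcn4 target in this list with the widest range among the histidine genes. They are given in the R64 genome, 5′ to 3′ on the gene's strand, with TGACTC in capitals.
HIS4: gcagtcgaacTGACTCtaatagtgac
HIS4: actctaatagTGACTCcggtaaatta
HIS4: ccatgcacagTGACTCacgttttttt
They lie on the minus strand at chrIII:68573-68598, chrIII:68561-68586 and chrIII:68517-68542, and the cores end 250, 238 and 194 bases before the start codon. Only HIS4, HIS5 and ILV5 of the 56 genes had 3 matches. HIS5, a histidinol-phosphate aminotransferase, did not share the low level in ComQuad, with a log2 difference of -0.04 ± 0.12, while ILV5 did.

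The arginine genes did not share one order of the strains. ARG1, the argininosuccinate synthetase, had 753.7 and 769.6 CPM in ODIRA_B against 574.0 and 626.8 (Trans), 390.9 and 361.6 (ODIRA_A) and 341.6 and 400.7 (ComQuad), with overlap between the last 2 strains only. The log2 difference was 0.80 ± 0.10 in ODIRA_B, -0.58 ± 0.11 in ComQuad and -0.56 ± 0.11 in ODIRA_A (edgeR adjusted p = 0.00038, 0.0021 and 0.0045). The ComQuad call was lost without ComQuad replicate 1, with values of -0.70 to -0.47 without one library, and the ODIRA_A call without ODIRA_A replicate 2, with values of -0.61 to -0.50. ARG4, the argininosuccinate lyase, was also higher in ODIRA_B (0.48 ± 0.10, edgeR adjusted p = 0.0093), but not without either of its libraries.

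ARG3, the ornithine carbamoyltransferase, had 563.1 and 1356.4 CPM in Trans, 340.9 and 281.9 in ODIRA_A, 248.5 and 372.3 in ComQuad and 523.9 and 544.1 in ODIRA_B. The difference of 1.37 ± 0.28 in Trans (edgeR adjusted p = 0.014) became 0.60 with an adjusted p of 0.084 without Trans replicate 2, so it rests on that library. CPA1 was higher in Trans by 0.54 ± 0.12 (edgeR adjusted p = 0.013), again not without Trans replicate 2, where the lowest value of 0.35 without one library was reached. In ODIRA_B it had 936.5 and 1005.4 CPM, below all other libraries (1067.6 to 1771.9), a log2 difference of -0.39 ± 0.12 that did not pass (edgeR adjusted p = 0.052). ARG8, the acetylornithine aminotransferase, differed among the strains (edgeR adjusted p = 0.036) but from the mean of the others in none. The 5 genes took 0.309% and 0.424% of CDS RPFs in the Trans libraries and 0.233% to 0.291% in the rest.

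**Figure D4:**
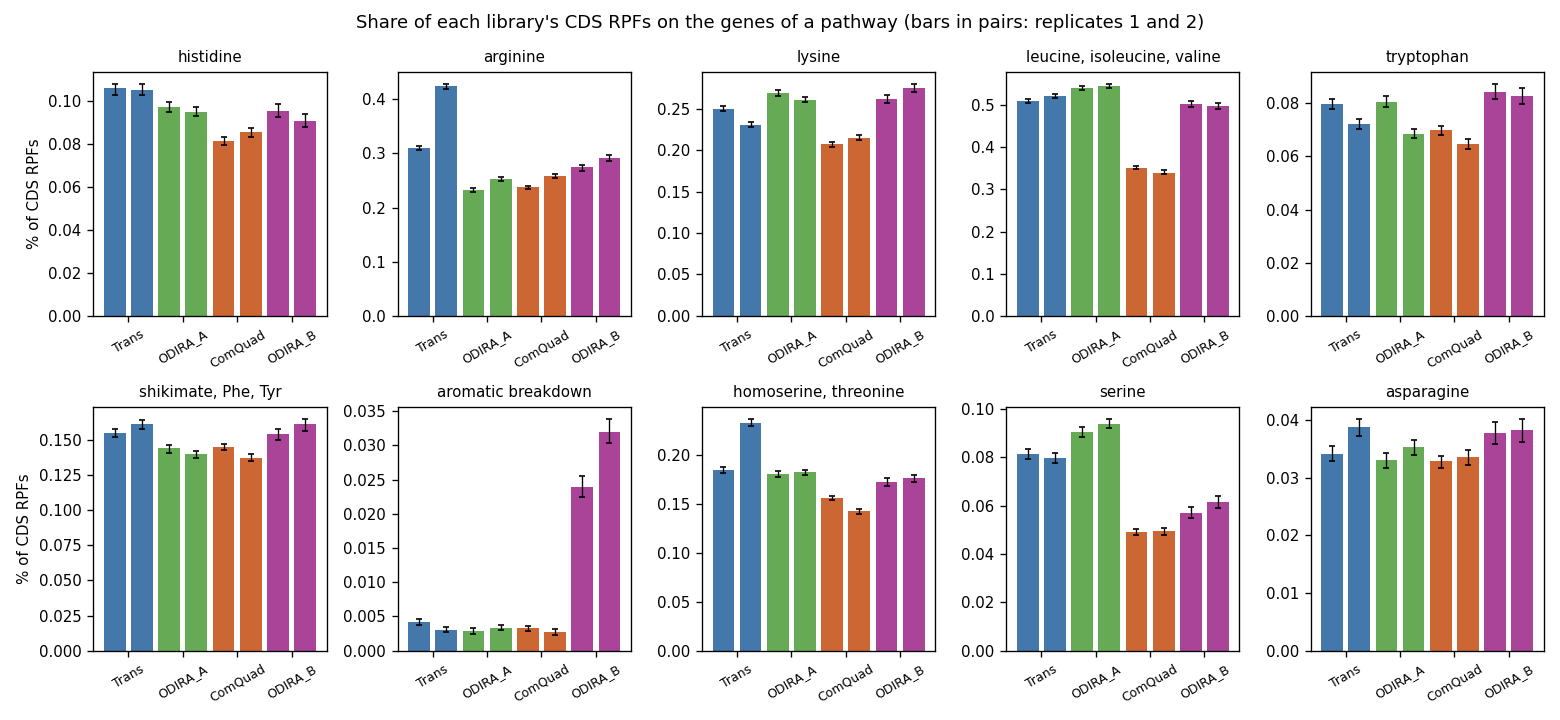
Percent of each library's CDS RPFs on the genes of each pathway (bars from 0, in pairs of replicates 1 and 2, coloured by strain) with exact binomial 95% intervals, which cover counting error only. Leucine, isoleucine and valine genes took 0.351% and 0.34% in ComQuad and at least 0.498% elsewhere, and in arginine synthesis the 2 Trans bars differ more than their intervals.

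Of the 7 lysine genes 4 were lower in ComQuad, where 16.9% of all genes were. LYS20, a homocitrate synthase at the entry of the pathway, had the largest difference there (-0.66 ± 0.10, edgeR adjusted p = 0.00058). LYS9, a saccharopine dehydrogenase near the end of the pathway, had the widest range, with 650.4 and 687.1 CPM in ODIRA_B, 509.9 and 484.6 in ODIRA_A, 482.2 and 392.8 in Trans and 368.7 and 363.8 in ComQuad. Its log2 difference was 0.64 ± 0.10 in ODIRA_B and -0.52 ± 0.11 in ComQuad (edgeR adjusted p = 0.0021 and 0.0047). The first became 0.59 with an adjusted p of 0.073 without ODIRA_B replicate 2, and the second was lost without either ComQuad library, as was that of LYS1, the enzyme of the last step (-0.45 ± 0.12, edgeR adjusted p = 0.017). LYS21, the paralog of LYS20, passed narrowly (-0.29 ± 0.10, edgeR adjusted p = 0.046) and was lost in 5 of the 8 fits without one library. LYS2 and LYS12 did not pass in any strain, and LYS4, the homoaconitase, was higher in ODIRA_B (0.35 ± 0.09, edgeR adjusted p = 0.027), lost in 5 of the 8 fits. Of the asparagine synthetase genes, ASN1 had 249.2 and 239.2 CPM in ODIRA_B against 202.0 and 255.2 (Trans), 186.3 and 192.6 (ODIRA_A) and 172.5 and 183.6 (ComQuad), and passed the test among the strains (edgeR adjusted p = 0.043) and that of ComQuad against ODIRA_B (-0.46 ± 0.13, edgeR adjusted p = 0.03), but none against the mean of the others. ASN2 had 138.0 to 162.1 CPM in all libraries and did not pass.

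Paralogs within the list differed in how evenly they moved. Per kilobase, LEU4 exceeded LEU9 by 7.27 to 12.4 times in every library, while SER3 was at 0.247 to 0.663 of SER33 and lowest in ComQuad replicate 1. ARO8 exceeded ARO9 by 26.7 and 27.3 times in ComQuad and by 6.5 and 6.01 times in ODIRA_B. ASN1 was at 1.24 to 1.81 of ASN2, ARO3 at 0.582 to 0.788 of ARO4, and LYS20 at 0.631 and 0.684 of LYS21 in ComQuad and 0.759 to 0.911 elsewhere. LYS20 and LYS21 are 88.2% identical in their coding sequence and share 48.6% of the 28-base stretches of LYS20. How reads with several matches were counted is not given in the sources used here, so the split between these genes is uncertain. For LEU4 and LEU9, SER3 and SER33, and ASN1 and ASN2 the shared part was at most 5.35%, and the other 48 genes had no 28-base stretch that recurs in the genome.

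Further genes of these pathways and their control were read from lists. Of 13 other enzyme genes 4 were higher and 1 lower in ODIRA_B (12.0% and 6.55% of all genes), and 2 were higher and 3 lower in ComQuad (16.9% each of all genes). ARG5,6, which encodes the acetylglutamate kinase and reductase of arginine synthesis, had 764.8 and 815.4 CPM in ODIRA_B, 402.5 and 510.3 in Trans, 316.2 and 417.1 in ComQuad and 275.1 and 264.4 in ODIRA_A (log2 difference 1.15 ± 0.13 in ODIRA_B, edgeR adjusted p = 0.00013). ARG7, the ornithine acetyltransferase, was also higher in ODIRA_B (0.78 ± 0.09, edgeR adjusted p = 0.00023). With ARG1 and ARG4 this made 4 arginine enzymes that were higher there.

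Of 14 genes that control Gcn4, 4 differed among the strains, where 43.5% of all genes did. PCL5, the cyclin that targets Gcn4 for degradation and is itself a Gcn4 target, had 52.2 and 57.6 CPM in ODIRA_B, 41.0 and 37.4 in ComQuad, 35.0 and 36.1 in Trans and 29.5 and 24.7 in ODIRA_A, with no overlap between strains. Its log2 difference was 0.71 ± 0.12 in ODIRA_B and -0.65 ± 0.12 in ODIRA_A (edgeR adjusted p = 0.0024 and 0.0034). The calls were lost without ODIRA_B replicate 2 and ODIRA_A replicate 2 respectively, with values without one library of 0.63 to 0.77 and -0.78 to -0.53. GCN2 had 89.6 to 101.4 CPM in all libraries and did not pass. GCN3, a subunit of eIF2B, was lower in ComQuad by -1.35 ± 0.11 (edgeR adjusted p = 5.1e-06), and lies on chromosome XI in a region amplified in other strains but not in ComQuad, so copy number moves with this value.

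Of 10 pathway activators and regulators 5 differed among the strains, close to the 43.5% of all genes. BAS1, an activator of histidine and adenine synthesis genes, lies in a segment of chromosome XI whose copy number differs between strains, and was higher in ODIRA_A by 1.15 ± 0.10 and lower in ODIRA_B by -0.94 ± 0.12 (edgeR adjusted p = 2.4e-05 and 0.00027). LYS14 was higher in ComQuad (0.52 ± 0.11, edgeR adjusted p = 0.005), where 4 lysine genes were lower, but not without ComQuad replicate 2. Among 4 genes of amino acid breakdown CHA1, the serine and threonine deaminase, had the widest range: 68.0 and 63.4 CPM in ComQuad, 57.7 and 70.4 in ODIRA_B, 12.0 and 13.2 in Trans and 7.0 and 5.3 in ODIRA_A. The strains isolated at generation 250 were above those isolated at generation 150 with no overlap, as for BAT2, and ComQuad and ODIRA_B did not differ from each other (0.04 ± 0.16, edgeR adjusted p = 0.89). CHA1 differed by a log2 value of 1.95 ± 0.12 in ComQuad and -2.62 ± 0.17 in ODIRA_A (edgeR adjusted p = 1.3e-06 and 5.7e-06).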

How the data were processed

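Ribosome profiling libraries of 4 evolved strains, 2 per strain, were analysed. The deposited tables, 1 per library, hold raw whole-number counts, which the authors made by trimming with cutadapt, removing rRNA, tRNA and snRNA reads, aligning with STAR and counting reads on the strand of each R64-1-1 feature with bedtools; rRNA was not depleted, and the handling of reads with several matches and of duplicates is not given in the sources used here. Counts on CDS were summed for 6600 genes. All 17 chromosomes have the same length in the tables and in the reference genome, so sequences were read from it by coordinates; since no table of proteins or promoters was used, paralogs were compared by coding sequence, and windows of 500 bases before the start codon stand for promoters.

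The 5725 genes with 10 or more RPFs in 2 or more libraries (among them all 56 members) were fitted with edgeR 4.0.16 in R 4.3.3 (TMM, robust quasi-likelihood F test, 1 coefficient per strain, 4 residual degrees of freedom, common biological coefficient of variation 0.123). Each strain was compared with the mean of the other 3 and with each other strain. The SE is the log2 difference divided by the square root of F. Sequence work used Python 3.11.15 and biopython 1.88. Values per library are printed for GCN4, for members past 0.05 in the test among strains whose strain means differ by at least 1 on the log2 scale, and for the widest member of each pathway; of genes outside the list, at most 4 of a group past the same test are named, and ARO80, GCN2 and single members given beside these were chosen after their values were seen. The members and lists were chosen with earlier results of these data known. Alternatives were DESeq2 1.42.0, RLE scaling, TMM factors from genes outside the amplified segments or without the members, no filter, at least 10 RPFs in every library, counts on gene features, a block for replicate number, fits of a pair alone, and each library left out. The ancestor, RNA-seq and mass spectrometry were not used here.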

Additional observations from a re-analysis of the deposited data

How the results depend on the processing

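The counts depended most on single libraries, and those over all tested genes mostly moved the same way. Without one library, the number of the 56 genes that differed among strains ran from 20 to 51. Those higher than the mean of the other 3 strains ran from 5 to 23 in Trans, 3 to 11 in ODIRA_A, 1 to 9 in ComQuad and 5 to 25 in ODIRA_B, and those lower from 1 to 8, 3 to 16, 18 to 32 and 0 to 5 in the same order. The medians ran from 0.075 to 0.148 in Trans, -0.093 to 0.01 in ODIRA_A, -0.377 to -0.322 in ComQuad and 0.182 to 0.23 in ODIRA_B. Between pairs the counts ran from 14 to 40 for ComQuad and ODIRA_B, 19 to 33 for ODIRA_A and ComQuad, 6 to 25 for ODIRA_A and ODIRA_B, 15 to 38 for Trans and ComQuad, 0 to 20 for Trans and ODIRA_A and 3 to 26 for Trans and ODIRA_B. With one library fewer, the strain has 1 library and is assumed to vary like the others. Trans and ODIRA_A differed in 1 gene, in 7 by DESeq2, in 3 with the replicate number as a block and in 0 in a fit of only their 4 libraries. Over all genes these counts were 209, 382, 202 and 49. In fits of only the pair, ComQuad and ODIRA_B differed in 46 genes against 30, and Trans and ODIRA_B in 9 against 14. Over all genes these were 2644 of 5655 against 1407 of 5725, and 550 of 5649 against 1070 of 5725. The main fit did not use the replicate numbers as pairs. The deviations of same-numbered libraries correlated between -0.209 and 0.231. They were positive among Trans, ODIRA_A and ODIRA_B (0.108 to 0.231) and negative between each of these and ComQuad (-0.209 to -0.085). Whether libraries of different strains shared a batch was not tested. With that block the genes that differed among strains were 40, and the lower and higher genes in ComQuad 27 and 6. DESeq2 called 40 among strains and 29 lower in ComQuad. The median in ODIRA_A, close to 0, changed sign without ODIRA_A replicate 2 (0.01), and no call against the mean of the other strains changed direction under the alternatives run. The libraries with the fewest RPFs were those of ODIRA_B, whose replicates differed least over the 56 genes (SD of the log2 ratio 0.119).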
